A study of Homo sapiens with 9 samples.

Results

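The genes followed here are CIITA, the master coactivator of MHC class II transcription, RFX5, a DNA-binding subunit of the complex through which CIITA acts, and 8 genes of the class II molecule and its loading: CD74, HLA-DRA, HLA-DRB1, HLA-DPA1, HLA-DPB1, HLA-DQA1, HLA-DMA and HLA-DMB. They are 10 of the 60623 genes listed in each of 9 RNA-seq libraries, and each name had 1 identifier. They were chosen by gene name with no filter on their values, but with earlier results of these data known. The libraries came from U937, a human monocytic cell line from a histiocytic lymphoma, carrying a retroviral doxycycline-inducible vector. The empty vector line (U937-CTR, labelled WT) was compared with a line that over-expressed the fusion protein AML1-ETO (U937-AE) and a line that over-expressed ETO2-GLIS2 (U937-EG), each at 0, 12 and 48 h of 5 ug/ml doxycycline. Cells of all 3 lines received the drug at 12 and 48 h, and the 0 h libraries are the uninduced state. The fusion lines grew from single cells, so the clone and the fusion cannot be told apart in a comparison between lines. Each condition was 1 library, so that no difference has a replicate check and none was tested. Intervals are exact 95% intervals from read counts and cover counting error only.

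MHC class II molecules present peptides from internalised proteins to CD4+ T cells, and they are pairs of an alpha and a beta chain (HLA-DR, HLA-DP, HLA-DQ). The invariant chain, CD74, occupies the groove while a new molecule travels to the endosome, and HLA-DM then exchanges the last fragment of CD74 for peptide. The genes share an upstream module with an X box and a Y box, bound by RFX (RFX5, RFXAP, RFXANK) and NF-Y. These factors are present in most cells, whereas CIITA, which does not bind DNA itself, is limited to antigen-presenting cells or is induced by interferon gamma and sets the level of the other genes.

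The values are FPKM, in which fragment counts are divided by exonic length and by the size of the library. The libraries held 15136400 to 18443643 fragments on genes by the totals recovered from the FPKM steps, and a gene with more than 3 recovered reads in a library was taken as detected there. RUNX1T1, the ETO part of AML1-ETO, was at 0.512, 22.2 and 28.7 FPKM in the U937-AE libraries and at most 0.0240 FPKM in any other library. GLIS2 was at 2.39, 6.79 and 8.85 FPKM in U937-EG and at 2.47 to 5.60 FPKM in the other lines. At 0 h RUNX1T1 in U937-AE was thus above the other lines, while GLIS2 in U937-EG was not. The authors name leaky expression of the fusions as the likely reason for a difference in CD11b between their uninduced lines. Its part in the 0 h results below was not tested. Of 10 monocytic markers, 6 to 8 reached 1 FPKM in every library, while CD14 stayed at or below 0.0802 FPKM and MPO at or below 0.780 FPKM. The summed level of these markers was lowest in U937-AE at 48 h, at 280 FPKM against 1010 to 2160 FPKM in the other libraries. Of 6 B cell markers, 2 or 3 reached 1 FPKM and MS4A1 and CD79B were at 0 in all libraries, and no T cell marker reached 1 FPKM. Dendritic cell markers summed to 1.91 to 10.2 FPKM, most of it FLT3 in 8 libraries, and the lowest sum was again that of U937-AE at 48 h, where FLT3 was at 0.743 FPKM. The part of these marker levels in the results below was not tested.

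Upstream sequences of the members were searched for letters of the X and Y boxes. RefSeq (GRCh38.p14) gave 11 upstream sequences for 8 members, and none was used for HLA-DRA and CIITA. Both strands of the 250 bases before each start were searched for ACNGATG, the core letters of the X box, and ATTGG, the inverted CCAAT of the Y box, letters that were chosen after the sequences had been seen. Of the 8 members, HLA-DRB1, HLA-DMA, HLA-DMB and CD74 held both and HLA-DPA1 held neither. Matches were counted whatever their strand, order or spacing, so holding both does not show an X box and Y box module. Counted in this way, both were in 2.05% of 35116 upstream sequences of all genes. Because the letters were chosen after the members' sequences had been seen, this share is a description and no test of a shared module. The X letters alone were in 6.35% and the Y letters alone in 32.0% of those sequences, and 7 members held the Y letters. The 150 bases before the start are given 5′ to 3′ on the gene's strand, with matches on either strand in capitals. They are given for the 4 members with both and for HLA-DPB1, which matched the Y letters only. A sequence without a match to these X letters can still hold an X box of other letters. In HLA-DRB1, HLA-DMA and HLA-DMB the same run, the X letters followed by atg, precedes the Y letters. The match of CD74 to the X letters lies farther upstream than the stretch shown.
HLA-DRB1, chr6:32589849-32589998, minus strand: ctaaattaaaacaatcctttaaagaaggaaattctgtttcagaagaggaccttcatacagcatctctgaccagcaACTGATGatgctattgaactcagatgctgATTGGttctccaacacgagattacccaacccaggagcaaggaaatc
HLA-DMA, chr6:32953098-32953247, minus strand: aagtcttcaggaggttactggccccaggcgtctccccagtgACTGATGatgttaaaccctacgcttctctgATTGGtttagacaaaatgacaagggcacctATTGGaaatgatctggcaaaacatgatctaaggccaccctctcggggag
HLA-DMB, chr6:32941029-32941178, minus strand: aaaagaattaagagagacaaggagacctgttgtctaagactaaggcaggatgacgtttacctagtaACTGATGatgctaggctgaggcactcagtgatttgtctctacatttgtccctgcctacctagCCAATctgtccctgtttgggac
CD74, chr5:150412911-150413060, minus strand: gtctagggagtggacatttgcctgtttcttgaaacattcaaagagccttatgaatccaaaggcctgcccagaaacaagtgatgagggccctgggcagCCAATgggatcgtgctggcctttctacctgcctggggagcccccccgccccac
HLA-DPB1, chr6:33075840-33075989, plus strand: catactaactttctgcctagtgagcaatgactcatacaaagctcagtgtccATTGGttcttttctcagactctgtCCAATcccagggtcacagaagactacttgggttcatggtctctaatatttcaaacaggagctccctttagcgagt

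Of the 10 members, only CD74 and RFX5 were expressed at 1 FPKM or more in all 9 libraries. The other 3 members with reads throughout, CIITA, HLA-DRB1 and HLA-DMA, were detected in every library at lower levels, so that 5 members were detected in all 9. HLA-DPA1, HLA-DPB1 and HLA-DQA1 were not detected in any library. HLA-DPA1 had at most 2 reads in a library, HLA-DPB1 had 2 reads in 1 library and HLA-DQA1 had 1 read in 1 library, so the alpha and beta chains of HLA-DP and the alpha chain of HLA-DQ were not expressed at this depth. HLA-DMB, the beta chain of HLA-DM, was at 0 in 6 libraries and passed 3 reads only in U937-EG at 12 h, where 5 reads gave 0.0606 FPKM. HLA-DRA, the alpha chain that every HLA-DR molecule needs, was detected in 4 libraries and reached at most 0.479 FPKM. In all, 6 members, those 5 and CIITA, never reached 1 FPKM. HLA-DPA1, HLA-DPB1 and HLA-DQA1 remained below detection after doxycycline in all 3 lines.

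Other genes of the chromosomal interval that holds the class II genes were expressed. HLA-DRA to HLA-DPB1 span chr6:32439887-33089696 (GRCh38.p14), with 18 protein-coding genes, 13 of them class II. The other 5, the peptide transporter genes TAP1 and TAP2, the immunoproteasome genes PSMB8 and PSMB9 and the chromatin reader BRD2, were at 1 FPKM or more in all 9 libraries. BRD2, which lies between HLA-DMA and HLA-DOA, was at 34.8 to 43.5 FPKM. None of the 13 class II genes was at 1 FPKM or more in all 9 libraries, and HLA-DQB1, HLA-DQA2, HLA-DQB2 and HLA-DOA were at 0 in all of them. The class II gene with the highest median there, HLA-DOB, which encodes a chain of the HLA-DM inhibitor HLA-DO, had a median of 1.34 FPKM, but its partner chain HLA-DOA was at 0 throughout.

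**Figure D1:**
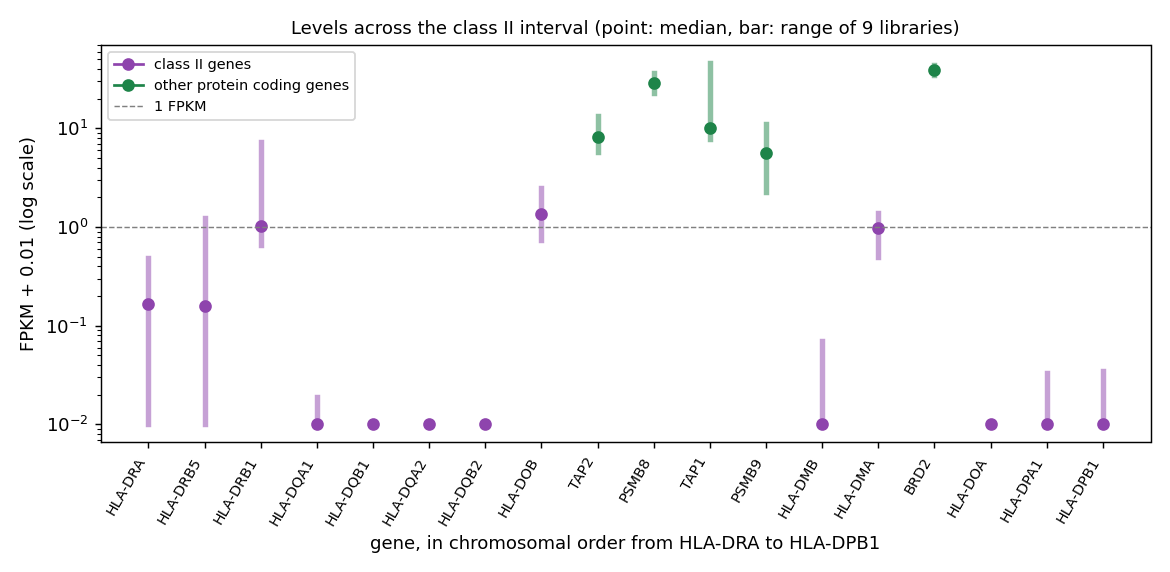
FPKM + 0.01 on a log scale for the 18 protein-coding genes of the class II interval in chromosomal order; points are medians and bars the range over the 9 libraries, and the dashed line is 1 FPKM. The 5 genes that are not class II lie above the line in every library, while no class II gene does.

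CIITA was low everywhere and showed the widest relative range of the members detected in all libraries. In the U937-AE line it was at 0.959 FPKM at 0 h, 0.546 at 12 h and 0.0823 at 48 h, from 330, 175 and 26 reads. In the empty vector line it was at 0.243, 0.251 and 0.135 FPKM, and in U937-EG at 0.0731, 0.145 and 0.109 FPKM. The uninduced U937-AE library was therefore the highest of the 9 and the same line at 48 h among the lowest.

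The 48 h level in U937-AE was 11.6-fold below that at 0 h (log2 ratio -3.54, interval -4.18 to -2.96). The difference was already -0.81 (-1.08 to -0.54) at 12 h, and in the empty vector line at 48 h it was -0.85 (-1.42 to -0.30). In U937-EG the log2 ratio was 0.99 (0.31 to 1.71) at 12 h and 0.58 (-0.17 to 1.34) at 48 h, and the latter interval includes no difference. At 0 h CIITA was 3.95-fold higher in U937-AE than in the empty vector line (log2 ratio 1.98, 1.63 to 2.35) and lower in U937-EG (-1.73, -2.41 to -1.10). At 48 h neither fusion line differed from the empty vector line beyond its interval, with -0.71 (-1.47 to 0.03) in U937-AE and -0.30 (-0.98 to 0.36) in U937-EG. The mean level of CIITA was below the 1 FPKM asked of a called gene, so it is not counted among the calls. With at least 20 reads over both libraries asked for in its place, a filter chosen after seeing the data, it was past 2-fold at 48 h in U937-AE, as were 31.6% of the genes tested. By the same filter it was past 2-fold at 0 h in both fusion lines against the empty vector line, where 6.01% of the genes tested for U937-AE and 8.33% of those for U937-EG were called. Of its exonic bases, 10.5% overlap another gene on the same strand and 11.5% a gene on the other strand, which a library without strand marks cannot keep apart; its neighbour DEXI was at 0.292 to 0.514 FPKM.

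**Figure D2:**
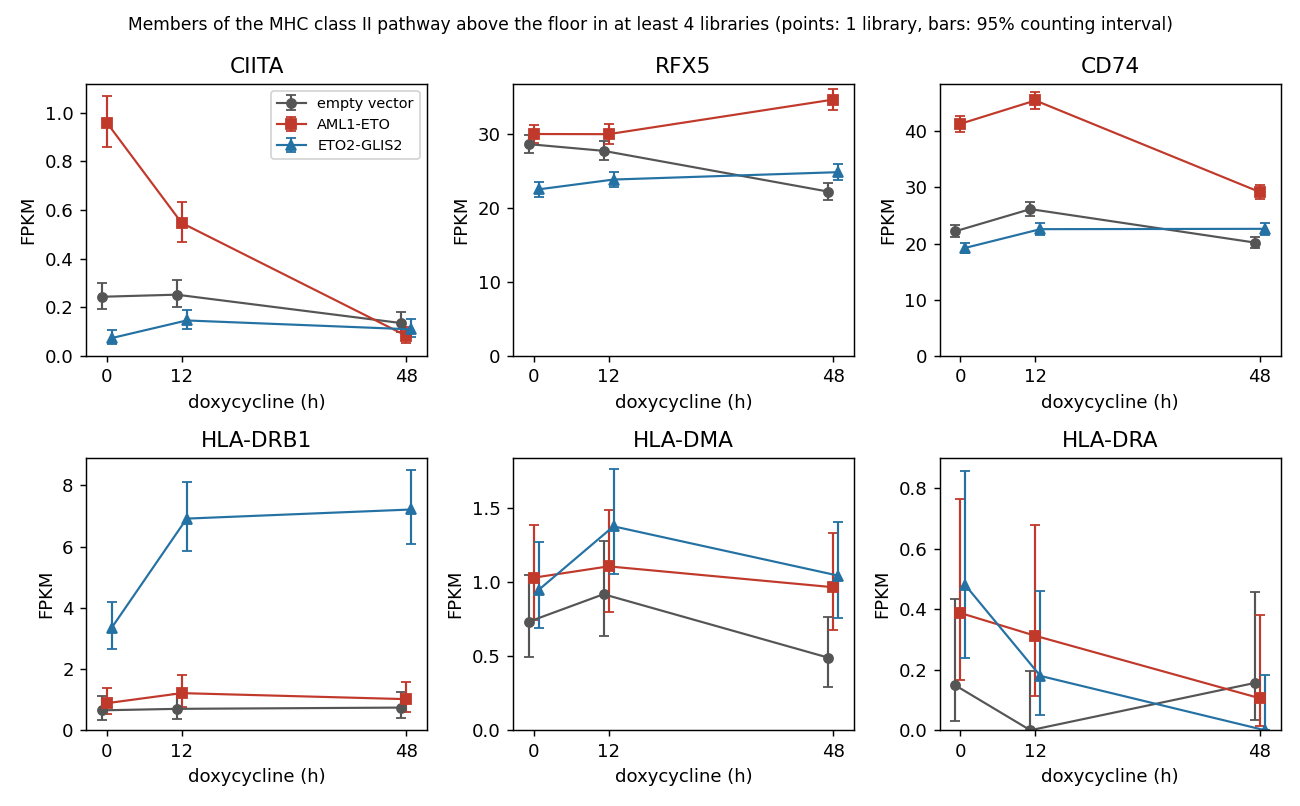
FPKM against hours of doxycycline for the 6 members detected in at least 4 libraries, in the empty vector, AML1-ETO and ETO2-GLIS2 lines; each point is 1 library and each bar its 95% counting interval. CIITA runs from 0.959 to 0.0823 FPKM in the AML1-ETO line, HLA-DRB1 is highest in the 3 ETO2-GLIS2 libraries, and RFX5 and CD74 stay between 19.2 and 45.5 FPKM.

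RFX5 was between 22.2 and 34.6 FPKM in all libraries, a far narrower range than that of CIITA. It was at 28.6, 27.7 and 22.2 FPKM in the empty vector line, 29.9, 29.9 and 34.6 FPKM in U937-AE and 22.5, 23.8 and 24.8 FPKM in U937-EG. The 48 h log2 ratio was -0.37 (-0.46 to -0.27) without a fusion, 0.21 (0.12 to 0.29) with AML1-ETO and 0.14 (0.05 to 0.23) with ETO2-GLIS2, all well short of 2-fold. RFXANK, which bridges RFX5 and RFXAP to NF-Y, was at 13.0, 17.4 and 19.5 FPKM in the empty vector line, 15.9, 22.4 and 30.7 in U937-AE and 14.1, 17.3 and 22.0 in U937-EG. RFXAP was at 5.65 FPKM at 0 h and 12.2 at 48 h in the empty vector line, past 2-fold, and at 5.15 and 5.73 FPKM in U937-AE. All 6 partners of RFX5 and CIITA on the module passed the 1 FPKM filter, with RFXAP in the empty vector line as the one call at 48 h against 0 h. Against the empty vector line at 48 h, RFXAP and the NF-Y subunit gene NFYB (3.13 against 6.70 FPKM) were lower in U937-AE past 2-fold. Of all genes tested between these 48 h libraries, 11.7% were lower past 2-fold. Among 8 coactivator and chromatin genes, the acetyltransferase gene KAT2B alone was called at 48 h against 0 h, and it fell in U937-AE from 8.70 to 1.08 FPKM (log2 change -2.99). In that comparison 11.3% of all genes tested fell, so 1 of 8 is near the background. The factors that bind the X and Y boxes were thus transcribed in all 9 libraries, including those in which the HLA-DP and HLA-DQ genes had no reads.

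CD74 was expressed in every library, at 22.2, 26.1 and 20.2 FPKM in the empty vector line, 41.3, 45.5 and 29.2 in U937-AE and 19.2, 22.6 and 22.6 in U937-EG. Among genes above 0 in a library it ranked between the percentiles 88.7 and 96.0, whereas HLA-DRA, which it chaperones, stayed below 0.5 FPKM. At 0 h the level in U937-AE was 1.86-fold that in the empty vector line (log2 ratio 0.90, 0.81 to 0.98), and the ratio was 0.53 on the log2 scale at 48 h. Within U937-AE the log2 ratio at 48 h against 0 h was -0.50 (-0.58 to -0.42). It was -0.14 (-0.24 to -0.04) in the empty vector line and 0.23 (0.14 to 0.33) in U937-EG. No comparison of CD74 reached 2-fold. Of the 3 lines, U937-AE thus had the highest level of both CIITA and CD74 at 0 h. Both were lower there at 48 h than at 0 h, by 11.6-fold for CIITA and by less than 2-fold for CD74. At 12 h they differed in direction, with a log2 ratio of -0.81 (-1.08 to -0.54) for CIITA and 0.14 (0.07 to 0.21) for CD74.

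HLA-DRB1 was the one member called in any comparison, and it was called in U937-EG alone. It was at 3.35 FPKM at 0 h, 6.92 at 12 h and 7.21 at 48 h there, from 76, 152 and 145 reads. In the empty vector line it was at 0.650, 0.699 and 0.740 FPKM and in U937-AE at 0.883, 1.21 and 1.02 FPKM, so that the 3 U937-EG libraries lay above the other 6. Between 0 and 48 h HLA-DRB1 rose 2.15-fold in U937-EG (log2 ratio 1.11, 0.69 to 1.53), and at 12 h it had risen 2.06-fold (1.04, 0.64 to 1.46). The lower bounds of both intervals lie below 2-fold, and both calls are lost when the libraries are rescaled by their median ratio (0.97 at 48 h and 0.94 at 12 h), when 1 FPKM is added in place of 0.01, or when the empty vector change is subtracted (0.92 at 48 h and 0.94 at 12 h). At 48 h, 7.52% of the genes tested in that line were called in either direction, and at 12 h 2.64%, after leaving out those that moved likewise in the empty vector line.

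HLA-DRB1 was higher in U937-EG than in the empty vector line already before induction. At 0 h the U937-EG level was 5.16-fold that of the empty vector line (log2 ratio 2.37, 1.51 to 3.34), and 6.41% of the genes tested were called in that comparison. At 48 h it was 9.75-fold that of the empty vector line (3.28, 2.49 to 4.19), where 6.67% were called, and at 12 h 9.90-fold (3.31, 2.49 to 4.25), where 6.94% were called. No member was called in U937-AE, where 22.5% of the genes tested were called at 48 h against 0 h and 23.5% at 48 h against the empty vector line, nor against that line at 0 h, where 4.90% were called, or at 12 h, where 8.77% were called. No member was called in the empty vector line at 48 h, where 11.0% were called, or at 12 h, where 7.53% were called, nor in U937-AE at 12 h, where 6.27% were called. Between 2 and 4 members passed the filter on the mean level in these comparisons.

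HLA-DRA did not move with HLA-DRB1. It had 11, 4 and 0 reads in U937-EG at 0, 12 and 48 h, while HLA-DRB1 rose past 2-fold. In U937-AE it had 8, 6 and 2 reads, and in the empty vector line 3, 0 and 3. The FPKM ratio of HLA-DRB1 to HLA-DRA was 2.28 to 9.62 in the 5 libraries of the other lines that had reads for both, and 6.99 and 38.5 in U937-EG at 0 and 12 h. HLA-DRB5, a near-identical second beta chain gene, had 17, 23 and 25 reads in U937-EG and at most 3 in any other library. Reads can be split between these 2 genes, and HLA-DRB3 and HLA-DRB4 were not among the genes listed for these libraries. The level of either single beta chain gene is therefore uncertain.

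**Figure D3:**
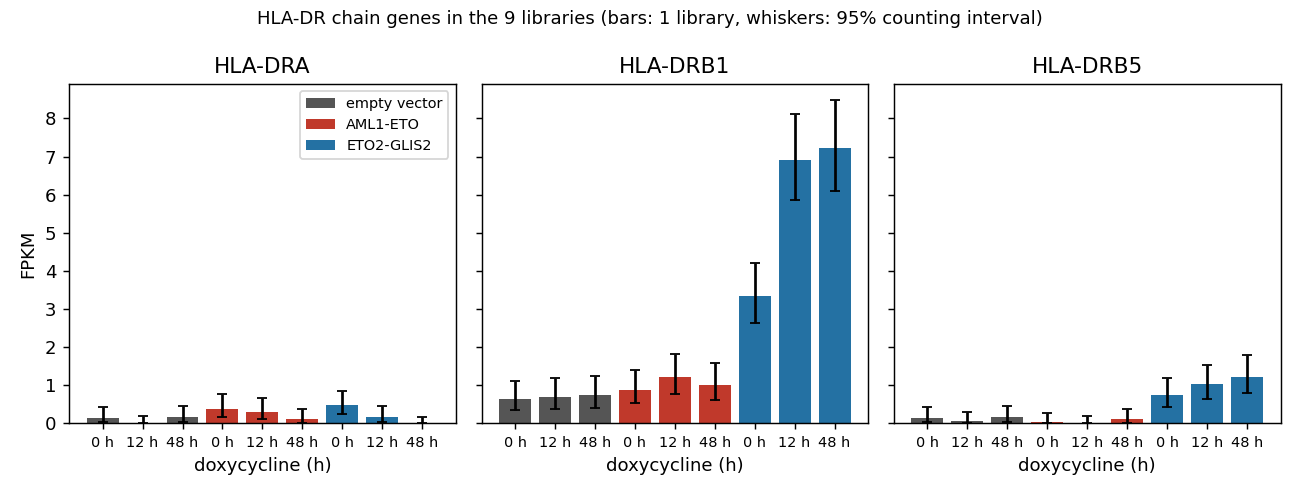
FPKM of the HLA-DR alpha chain gene HLA-DRA and the beta chain genes HLA-DRB1 and HLA-DRB5 in the 9 libraries; each bar is 1 library, coloured by line, with its 95% counting interval. HLA-DRB1 reaches 7.21 FPKM in the ETO2-GLIS2 line, where HLA-DRA has 0 reads at 48 h.

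HLA-DMA, the alpha chain of the peptide exchange factor, was at 0.732, 0.918 and 0.490 FPKM in the empty vector line, 1.03, 1.11 and 0.965 in U937-AE and 0.947, 1.38 and 1.04 in U937-EG. These values came from 19 to 62 reads and no change over time within a line was larger than its counting interval at 48 h against 0 h. At 48 h the level in U937-EG was above that in the empty vector line by 1.09 on the log2 scale (0.28 to 1.95), and that in U937-AE by 0.98 (0.14 to 1.86). With the filter on 20 reads the former was past 2-fold, as were 8.22% of the genes tested. Its partner HLA-DMB was not detected in 8 of 9 libraries, so that HLA-DM, like HLA-DR and HLA-DO, had reads for 1 chain and few or none for the other.

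The genes that lead to CIITA were compared next. Of 14 genes from interferon gamma to CIITA, IFNG was at 0 in all libraries, and 9 or 10 passed the filter at 48 h against 0 h. In U937-AE 3 of 9 fell, namely IRF8 (91.9 to 9.82 FPKM), SPI1 (92.6 to 11.9 FPKM), which encode myeloid transcription factors, and IFNGR2 (11.4 to 3.42 FPKM), a chain of the interferon gamma receptor. In U937-AE at 48 h, 11.3% of all genes tested fell past 2-fold, and 28.6% were past 2-fold in either direction. In U937-EG IRF8 fell from 71.7 to 18.9 FPKM and IRF1 rose from 1.02 to 2.18 FPKM, where 13.3% of all genes were past 2-fold. In the empty vector line none of 10 was past 2-fold, and the median of the list was 0.43 against 0.16 for all genes. The medians in U937-AE and U937-EG were 0.38 and 0.20, against 0.22 and 0.16 for all genes.

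The class I side of the same pathway moved the other way from CIITA in U937-AE. NLRC5, a relative of CIITA that acts on class I genes, rose from 2.11 to 7.23 FPKM (log2 change 1.77), while CIITA was lower by 3.39 on the same scale with 0.01 FPKM added. Of the 10 genes of this list 8 rose in U937-AE, among them TAP1, B2M and PSMB9, with a median of 1.48, where 17.3% of all genes tested rose past 2-fold. In the empty vector line 3 rose, PSMB9 among them, and the median was 0.65. In that line 11.0% of all genes tested were past 2-fold in either direction. In U937-EG 1 rose and the median was 0.56, with 10.8% of all genes rising. HLA-DOB was the one class II gene outside the members with a call at 48 h against 0 h, at 0.735, 1.84 and 2.47 FPKM in U937-AE, and 30.4% of its exonic bases overlap another gene on the same strand.

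**Figure D4:**
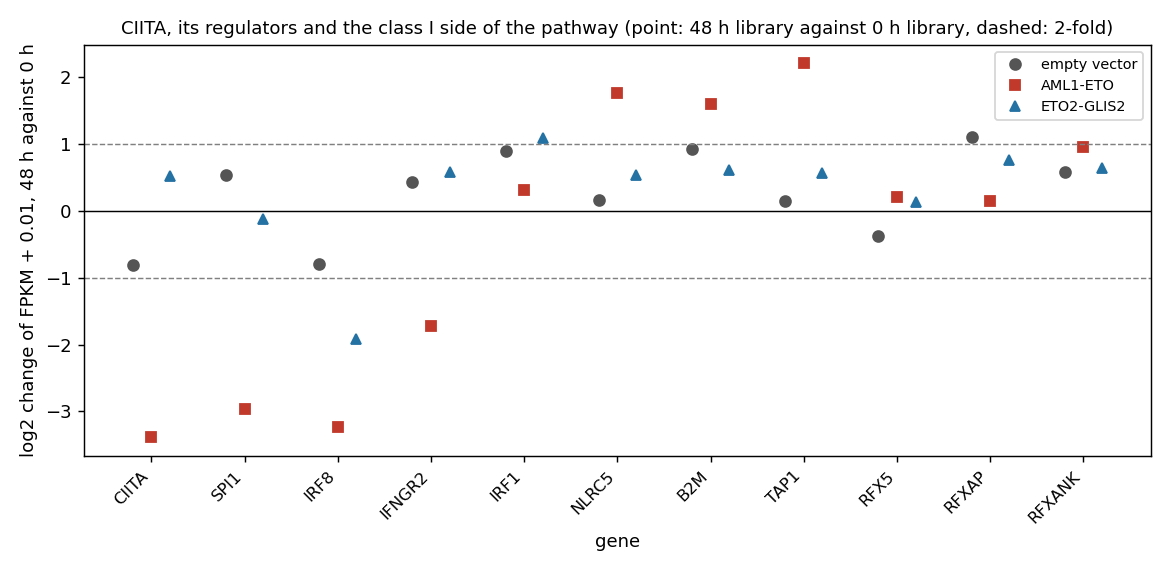
Log2 change of FPKM + 0.01 at 48 h against 0 h for CIITA, genes that act upstream of it, NLRC5 and class I genes, and the 3 RFX subunits; each point is 1 comparison of 2 libraries in the empty vector, AML1-ETO or ETO2-GLIS2 line, and dashed lines mark 2-fold. In the AML1-ETO line CIITA (-3.39), SPI1, IRF8 and IFNGR2 lie below -1, while NLRC5, B2M and TAP1 lie above 1.

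Of 12 genes for peptide generation and class II turnover, 8 or 9 passed the filter at 48 h against 0 h. The proteases CTSL and LGMN and the thiol reductase IFI30 did not, at no more than 0.140, 0.0866 and 0.477 FPKM in any library. CTSS, the protease that trims CD74, was at 26.8 FPKM at 0 h and 56.5 at 48 h in the empty vector line, 34.0 and 63.9 in U937-AE and 48.8 and 69.9 in U937-EG. In the empty vector line 6 of the 9 that passed rose, CTSS, CTSB, CTSD, SPPL2A, MARCHF1 and CD82, with a median of 1.01, where 11.0% of all genes tested were past 2-fold in either direction. In U937-AE none of 8 rose and 4 fell, CTSD, CD63, CD82 and AP1S2, with a median of -0.49, where 11.3% of all genes fell, and in U937-EG CD82 alone of 9 rose, with a median of 0.65, where 10.8% of all genes rose. MARCHF1, the ubiquitin ligase that removes class II molecules from the surface, ranged from 0.625 to 1.47 FPKM over the 9 libraries. At 48 h against 0 h, 2 of 5 costimulation genes passed the filter in each line and none was called, and none of the 6 class II pseudogenes passed it.

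CD74, HLA-DRB1 and RFX5 had a mean level high enough to be compared with all other genes across the 9 libraries. For CD74 the most similar patterns by Pearson correlation were SERPINE2 (0.952), KCNJ11 (0.951) and CCDC125 (0.927). For HLA-DRB1 they were AL441992.1 (0.948), ATP6V1A (0.945) and IL2RG (0.939), and for RFX5 ZDHHC8 (0.975), BCORL1 (0.973) and HOXA11-AS (0.960). These are the highest of 11767 genes over 9 points that share a line or a time, and they are given as a description.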

How the data were processed

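The authors aligned the TruSeq RNA libraries, which do not mark strand, to hg38 with HISAT2 2.0.5, counted reads per gene with HTSeq 0.9.1 and deposited FPKM values for 60623 genes per library; the annotation version is not given in the sources used here. FPKM values are steps of 1 read for a gene's length and the library total, so read counts were recovered. A whole length and whole reads were found for 98.5% of 23889 genes above 0 in at least 3 libraries. Of those, 99.9% lay within 0.05 reads, a tolerance that was widened at high counts. For members above 0 in fewer libraries, the annotated exon length was used where it was a whole multiple of the recovered one. The reads of HLA-DPB1 were scaled up in this way, from 2611 to 5222 bases. Recovered totals of 15136400 to 18443643 set the counting precision. A gene was called when log2(FPKM + 0.01) differed by more than 1 and the mean was at least 1 FPKM. In the fusion lines against their own 0 h library, genes past 2-fold in the same direction in the empty vector line were left out of the calls of members, while list counts are given without that exclusion. The added 0.01 FPKM understates changes of low genes, so ratios of members were computed from reads, with Clopper-Pearson intervals (Python 3.11.15, scipy 1.17.1). With 1 library per condition no test was run. Every member was named, and other genes by a fixed rule: up to 4 of each list past 2-fold at 48 h by size of change, the 3 most similar genes by correlation, and SPI1, IRF1, IRF8, NLRC5, RFXANK, RFXAP and CTSS in any case; some list genes are not reported here. DEXI, HLA-DRB5, the marker genes, further list genes past 2-fold and the other genes of the class II interval were added after their values were seen. The members and lists were chosen with earlier results of these data known. Exon overlaps came from GENCODE v44 on GRCh37, without coordinates, and positions from RefSeq GRCh38.p14. The recovery and calls were tested on simulated data.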

Additional observations from a re-analysis of the deposited data

Results flagged for a closer look

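CIITA moved in opposite directions at both times in the fusion lines. The log2 change with 0.01 FPKM added was 0.90 at 12 h and 0.52 at 48 h in U937-EG and -0.80 and -3.39 in U937-AE, a gap of 3.91 at 48 h. The interval of the 48 h ratio in U937-EG includes no difference. RFX5 was at 0.08 and 0.14 in U937-EG and at -0.05 and -0.37 in the empty vector line, a gap of 0.51 at 48 h, and each change was below 2-fold. With 1 library per condition neither difference was tested.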

How the results depend on the processing

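The counts of members called are 1 in each of the 4 comparisons, so any change of a single gene alters them. At 48 h against 0 h, a pseudocount of 1 FPKM, rescaling by the median ratio and subtraction of the empty vector change each gave 0, no filter gave 6, and the filter on 20 reads, chosen after seeing the data, gave 2, with CIITA in U937-AE as the second. At 12 h against 0 h, the pseudocount of 1 FPKM, rescaling and subtraction each gave 0 and no filter gave 5. For uninduced lines against the uninduced empty vector, no filter gave 5, a mean of at least 5 FPKM gave 0, a 1.5-fold threshold gave 2 (with CD74 in U937-AE) and the reads filter gave 3 (with CIITA in both fusion lines). For fusion lines against the empty vector at 48 h, no filter gave 6, a mean of at least 5 FPKM gave 0, a 1.5-fold threshold gave 2 (with RFX5 in U937-AE) and the reads filter gave 2 (with HLA-DMA in U937-EG). Members detected numbered 5, or 2 at 1 FPKM or more in all libraries. Rescaling divided the libraries by 0.941 to 1.05, and the median log2 change of all genes at 48 h was 0.16, 0.22 and 0.16 in the empty vector, U937-AE and U937-EG lines; the HLA-DRB1 log2 change in U937-EG was then 0.97 at 48 h. Of 45 recomputed member changes, 37 stayed within the counting interval and none changed sign. No paired analysis was possible because each condition has 1 library, and no library could be left out. Depth limits HLA-DRA, where 3 reads correspond to 0.131 to 0.159 FPKM.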
